A study of Mus musculus with 8 samples.

Results

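Collagens and related matrix genes form the scaffold of the islet stroma, and 10 of them were followed here: the fibrillar collagen genes Col1a1, Col1a2 and Col3a1, the basement membrane collagen genes Col4a1 and Col4a2, the microfibril collagen gene Col6a1, and Sparc, Dcn, Lamb2 and Fn1. They were taken by symbol, and each matched 1 row among the 35596 genes listed. Polyadenylated RNA of pancreatic islets was sequenced from male C57BL/6J mice, in 4 weight-cycled and 4 obese libraries. Weight-cycled mice ate a 60% fat diet for 9 weeks, a 10% fat diet for the next 9 weeks and the 60% diet again for a last 9 weeks. Obese mice ate the 10% diet for 9 weeks and then the 60% diet for 18 weeks without a break. Both groups thus had the same time on each diet, and the comparison asks whether its order left a difference in islet transcripts. No genotype or transgene was involved, the ages at the start are not given in the labels, and islets were released by collagenase and collected by hand-picking. The final stretch on the 60% diet lasted 9 weeks in weight-cycled and 18 weeks in obese mice, and its length and the order of the diets cannot be told apart. Whether the libraries are 8 separate animals is not in the labels, so a p-value reflects only how these libraries vary, which may be technical.

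Type I and type III collagens form the tensile fibrils of connective tissue and are made mainly by fibroblasts, stellate cells and other mesenchymal cells. Type IV collagen and laminins form the sheet-like basement membrane, which in mouse islets is largely laid down by capillary endothelial cells and lies between the capillaries and the endocrine cells. Sparc and decorin bind collagen and affect how fibrils assemble, and fibronectin links the matrix to integrins. Pancreatic endocrine cells themselves make little of this matrix.

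Type IV collagen carries the closest pairing among the 10 genes, since Col4a1 and Col4a2 lie head to head on chromosome 8 and are read outward from a shared stretch. The windows from 250 bases before to 50 bases after the start of each transcript follow (RefSeq, build GRCm38.p6). Their start sites were 21 bases apart (11312805 for Col4a2, 11312826 for Col4a1), so the windows share 78 bases, which are in capitals and appear on opposite strands. Each start lies just inside the other gene, so the genes overlap at their starts.
Col4a2 (chr8:11312555-11312854, plus strand): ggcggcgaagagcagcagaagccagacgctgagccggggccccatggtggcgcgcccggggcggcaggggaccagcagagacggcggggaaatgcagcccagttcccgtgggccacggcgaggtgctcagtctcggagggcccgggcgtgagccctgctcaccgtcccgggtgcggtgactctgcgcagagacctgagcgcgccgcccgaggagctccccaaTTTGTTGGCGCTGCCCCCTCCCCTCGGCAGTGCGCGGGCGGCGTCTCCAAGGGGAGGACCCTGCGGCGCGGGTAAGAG
Col4a1 (chr8:11312777-11313076, minus strand): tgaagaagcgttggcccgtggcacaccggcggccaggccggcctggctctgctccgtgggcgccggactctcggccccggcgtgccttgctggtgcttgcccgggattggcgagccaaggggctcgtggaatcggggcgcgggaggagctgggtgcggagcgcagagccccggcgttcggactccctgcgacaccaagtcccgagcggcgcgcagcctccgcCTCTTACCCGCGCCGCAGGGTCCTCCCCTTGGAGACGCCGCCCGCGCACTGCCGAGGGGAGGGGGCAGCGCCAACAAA
For contrast, the windows of the fibrillar genes Col1a2 and Col3a1 are shown with matches to the motifs GGGCGG (GC box), CCAAT and TATAAA, on either strand, in capitals.
Col1a2 (chr6:4505368-4505667, plus strand): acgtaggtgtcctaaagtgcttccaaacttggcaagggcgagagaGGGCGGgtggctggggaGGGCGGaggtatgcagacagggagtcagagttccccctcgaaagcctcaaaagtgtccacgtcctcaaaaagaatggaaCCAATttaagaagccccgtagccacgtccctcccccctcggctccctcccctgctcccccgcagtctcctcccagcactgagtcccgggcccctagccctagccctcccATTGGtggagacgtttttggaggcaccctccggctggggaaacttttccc
Col3a1 (chr1:45311288-45311587, plus strand): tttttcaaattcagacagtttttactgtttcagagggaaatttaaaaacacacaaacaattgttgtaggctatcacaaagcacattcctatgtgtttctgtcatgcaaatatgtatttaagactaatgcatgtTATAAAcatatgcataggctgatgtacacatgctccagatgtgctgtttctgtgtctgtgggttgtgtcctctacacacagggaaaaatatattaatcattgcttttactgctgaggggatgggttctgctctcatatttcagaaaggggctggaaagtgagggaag
Windows were on hand for 7 of the 10 genes. G and C made up 73.7% of the Col4a2 window, 74% of the Col4a1 window, 61% of the Col1a2 window and 37.7% of the Col3a1 window, against a median of 52.7% over 32851 windows of the same length. The Col4a2 window held 3 GC boxes and 1 CCAAT, the Col4a1 window 1 of each, and the Col1a2 window 2 of each, with no match overlapping another. One GC box lay in the shared 78 bases, downstream of both starts, and counts for both type IV genes. The Col3a1 window held none of these but 1 TATAAA. Over all windows, 35.7% held a GC box, 37.4% CCAAT and 13.6% TATAAA. A match describes letters and is not a measured site.

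Matrix transcripts were scarce in these libraries. Values are TPM, an abundance per transcript length relative to the library's total, so levels can be set side by side between genes, but sequencing depth cannot be read from them and counting error is not given. Summed over the 10 genes, matrix transcripts came to 23.5, 20, 12.8 and 12.6 TPM in weight-cycled replicates 1 to 4, against 22.7, 20.2, 16.4 and 16.6 TPM in obese replicates 1 to 4. Sparc, Col4a1 and Col4a2 made up between 83.4% and 88.2% of that sum in every library. By mean level the order was Sparc (9.38 TPM), Col4a1 (3.53 TPM), Col4a2 (2.66 TPM), Col1a2 (0.600 TPM), Col3a1 (0.485 TPM), Lamb2 (0.477 TPM), Dcn (0.474 TPM), Col6a1 (0.290 TPM), Col1a1 (0.152 TPM) and Fn1 (0.0591 TPM). Sparc exceeded Col4a1, Col4a1 exceeded Col4a2 and Col4a2 exceeded Col1a2 in 8 of 8 libraries. The middle of the order was not separated, since Col1a2 exceeded Col3a1 in 7 libraries, Col3a1 exceeded Lamb2 in 5 and Lamb2 exceeded Dcn in 4. All 10 genes were above 0 in every library.

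**Figure D1:**
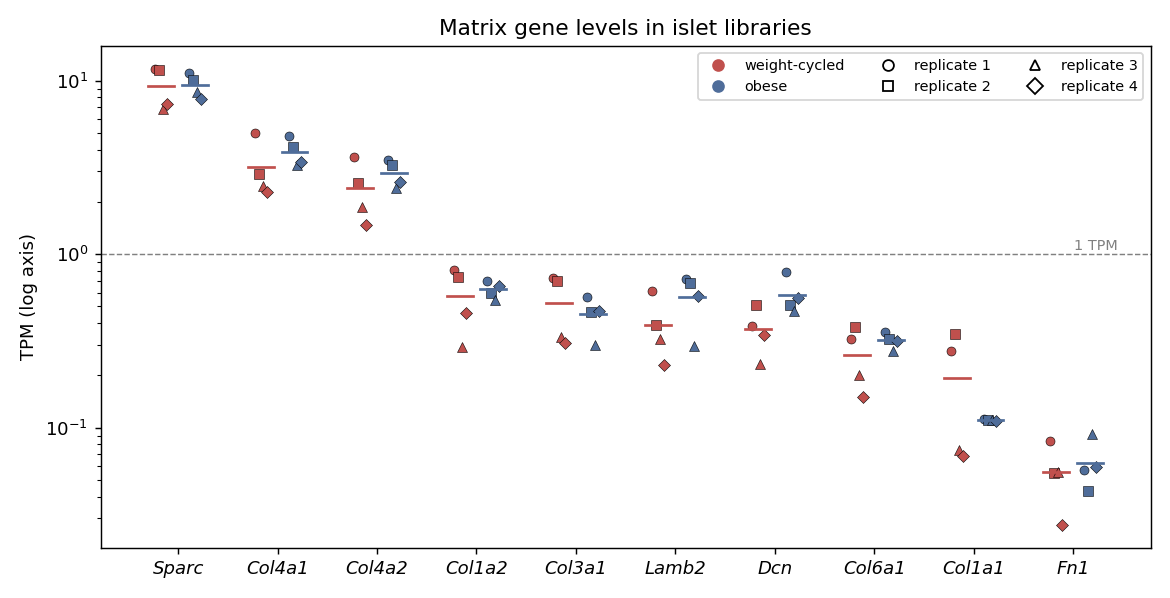
TPM of the 10 matrix genes on a log axis, ordered by mean level, with weight-cycled libraries to the left of obese libraries for each gene, a symbol for each replicate number and a short line at each group's mean. Only Sparc, Col4a1 and Col4a2 lie above 1 TPM on average, and the groups overlap for each of the 10 genes.

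No matrix gene passed the test between the diets. Genes with a mean of at least 1 TPM over all libraries were tested with limma on log2(TPM + 1), at an adjusted p of 0.05, and 3 of the 10 genes (Sparc, Col4a1, Col4a2) reached that level while 7 did not. Limma called 0 of these 3, where 25.2% of the 8127 genes tested were called (23.9% lower, 1.21% higher), a share from which 3 genes cannot be set apart. It also called 0 of the 3 after median-of-ratios scaling between libraries, where 1.81% of genes were called (0.566% lower, 1.24% higher), and after correction for trends of libraries with transcript length, where 3.26% were (1.51% lower, 1.75% higher). Weight-cycled and obese values overlapped for all 10 genes. Among all 19482 genes above 0 in some library, weight-cycled values lay wholly below obese values for 12.2% and wholly above for 1.19%, and among tested genes for 21.1% and 1.30%. Over the tested genes the log2 fold change, weight-cycled minus obese, had a median of -0.26, and scaling moved it to -0.01, so each fold change below is best read relative to that shift. In the bulk RNA used here, fewer cells of a type and less RNA per cell cannot be told apart.

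One weight-cycled library stood with the obese group over all genes. Weight-cycled replicate 1 scored -7.98 on the first principal component, which held 66.8% of the variance, where the other weight-cycled libraries scored 13.8 to 30.6 and the obese libraries -23.3 to -5.03. Transcript length followed the same line. Spearman's rho across genes between length and a library's deviation from the gene's mean was 0.345 in that library and 0.184 to 0.375 in the obese libraries, but -0.400 to -0.283 in the other weight-cycled libraries. Insulin transcripts (Ins1 and Ins2) made up between 75.4% and 78.8% of TPM, so the labelled tissue was present in every library.

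Col4a1 (ENSMUSG00000031502.11, chromosome 8, 11198423 to 11312826, build mm10) encodes the alpha 1 chain of type IV collagen, the main collagen of basement membranes. It had 4.97, 2.89, 2.48 and 2.28 TPM in weight-cycled replicates 1 to 4, against 4.82, 4.13, 3.26 and 3.38 TPM in obese replicates 1 to 4. Weight-cycled replicate 1 was the highest of the 8 libraries and the other weight-cycled libraries were the 3 lowest. Means were 3.15 ± 1.24 TPM in weight-cycled and 3.90 ± 0.723 TPM in obese islets (SD, n = 4 each), which gave a log2 fold change of -0.27 (95% interval -0.66 to 0.13, limma adjusted p = 0.243). Col4a2 (ENSMUSG00000031503.13, chromosome 8, 11312805 to 11449287) encodes the partner chain, alpha 2, which joins alpha 1 in the common type IV trimer. It had 3.65, 2.56, 1.87 and 1.47 TPM in weight-cycled replicates 1 to 4, against 3.49, 3.24, 2.41 and 2.60 TPM in obese replicates 1 to 4. Replicate 1 was again the highest of all libraries, and weight-cycled replicate 2 lay within the obese range. Its log2 fold change was -0.25 (95% interval -0.64 to 0.15, limma adjusted p = 0.274).

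Both type IV genes passed the test once weight-cycled replicate 1 was left out, and did not once libraries were also rescaled. Without that library the log2 fold change was -0.46 for Col4a1 (SE 0.127, limma adjusted p = 0.00879) and -0.42 for Col4a2 (SE 0.141, limma adjusted p = 0.0226), in a fit that called 58.0% of all tested genes, 54.6% lower and 3.32% higher. Over the 8 libraries, median-of-ratios scaling put them at -0.02 (95% interval -0.32 to 0.29) and -0.01 (95% interval -0.35 to 0.32). Scaling without that library, chosen after the data were seen, gave -0.14 (limma adjusted p = 0.302) and -0.12 (limma adjusted p = 0.501). The sign was not stable, as quantile scaling gave 0.01 and 0.03.

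**Figure D2:**
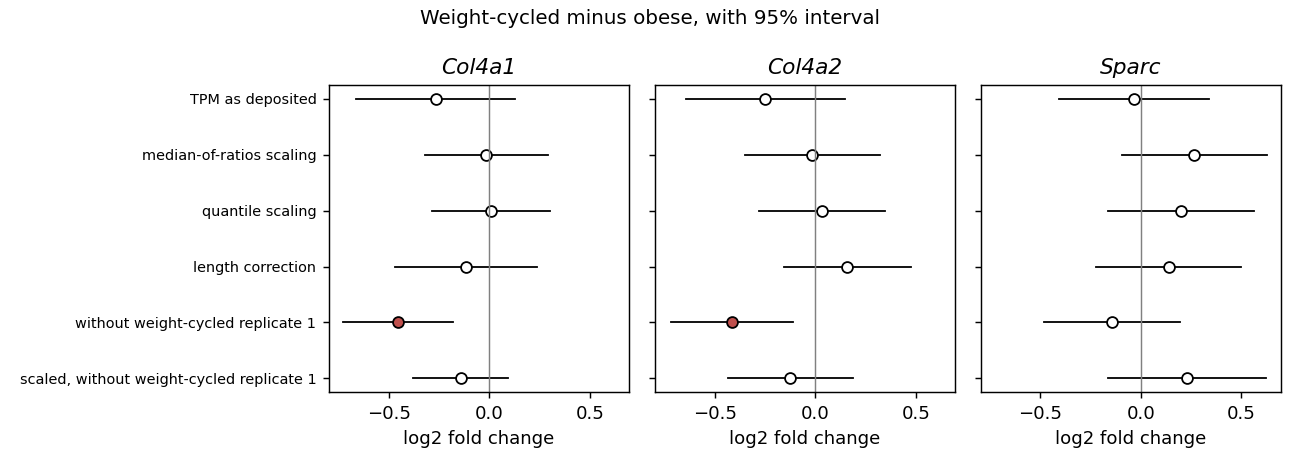
Log2 fold change, weight-cycled minus obese, of Col4a1, Col4a2 and Sparc with its 95% interval under 6 settings, filled where the limma adjusted p is under 0.05. The filled points are Col4a1 and Col4a2 without weight-cycled replicate 1, at -0.46 and -0.42, and Sparc moves from -0.03 on deposited TPM to 0.27 after median-of-ratios scaling.

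Lamb2, which encodes the laminin beta 2 chain of vascular and neuromuscular basement membranes, was below the level for testing. It had 0.612, 0.390, 0.322 and 0.229 TPM in weight-cycled replicates 1 to 4, against 0.719, 0.679, 0.297 and 0.571 TPM in obese replicates 1 to 4. Obese replicate 3 lay among the weight-cycled libraries. Group means were 0.388 ± 0.163 TPM in weight-cycled and 0.566 ± 0.190 TPM in obese islets (SD, n = 4 each). In a fit of all 19482 genes above 0, in which limma called 0 genes (5686 at an unadjusted p under 0.05), its adjusted p was 0.347.

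Sparc (ENSMUSG00000018593.13, chromosome 11, 55394500 to 55423183, build mm10), which encodes a calcium- and collagen-binding matricellular glycoprotein, was the most abundant of the 10. It had 11.7, 11.5, 6.90 and 7.30 TPM in weight-cycled replicates 1 to 4, against 11.1, 10.1, 8.58 and 7.83 TPM in obese replicates 1 to 4. The weight-cycled libraries were split, with replicates 1 and 2 above every obese library and replicates 3 and 4 below every obese library. Means were 9.35 ± 2.60 TPM in weight-cycled and 9.42 ± 1.49 TPM in obese islets (SD, n = 4 each), and the log2 fold change was -0.03 (95% interval -0.41 to 0.34, limma adjusted p = 0.880). Its sign turned to 0.27 after median-of-ratios scaling (95% interval -0.10 to 0.63, limma adjusted p = 0.281), 0.20 after quantile scaling and 0.14 after length correction.

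The fibrillar collagen genes showed the same split more widely. Col1a1 (ENSMUSG00000001506.10, chromosome 11, 94936224 to 94953042, build mm10), which encodes the alpha 1 chain of type I collagen, had 0.278, 0.348, 0.0747 and 0.0685 TPM in weight-cycled replicates 1 to 4, against 0.112, 0.111, 0.111 and 0.109 TPM in obese replicates 1 to 4. Weight-cycled replicates 1 and 2 were above and replicates 3 and 4 below every obese library. On TPM as deposited the highest weight-cycled value was 5.08 times the lowest, against 1.03 times in obese islets. Col1a2, which encodes the alpha 2 chain of the same trimer, had 0.805, 0.738, 0.292 and 0.460 TPM in weight-cycled replicates 1 to 4, against 0.700, 0.597, 0.547 and 0.658 TPM in obese replicates 1 to 4. Here too replicates 1 and 2 exceeded every obese library and replicates 3 and 4 lay below all of them. Col3a1, which encodes the single chain of type III collagen, had 0.732, 0.704, 0.333 and 0.309 TPM in weight-cycled replicates 1 to 4, against 0.565, 0.463, 0.3 and 0.471 TPM in obese replicates 1 to 4. Weight-cycled replicates 1 and 2 were again the highest, while replicates 3 and 4 lay just above obese replicate 3. In the fit of all genes above 0, the adjusted p was 0.443 for Col1a1, 0.748 for Col1a2 and 0.754 for Col3a1.

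Col6a1, which encodes the alpha 1 chain of the beaded microfibrils of type VI collagen, had 0.322, 0.380, 0.201 and 0.150 TPM in weight-cycled replicates 1 to 4, against 0.355, 0.323, 0.277 and 0.316 TPM in obese replicates 1 to 4. Replicates 3 and 4 were the 2 lowest of the 8 libraries. Dcn encodes decorin, a small proteoglycan that coats collagen fibrils. It had 0.386, 0.511, 0.231 and 0.343 TPM in weight-cycled replicates 1 to 4, against 0.784, 0.507, 0.469 and 0.561 TPM in obese replicates 1 to 4. All weight-cycled libraries except replicate 2 lay below every obese library, and Dcn had the smallest p of the 7 genes below 1 TPM. In the limma fit of all genes above 0 its log2 fold change was -0.21 (SE 0.0856, adjusted p = 0.157). Fn1, which encodes fibronectin, was at 0.0553 ± 0.0227 TPM in weight-cycled and 0.0628 ± 0.0208 TPM in obese islets (SD, n = 4 each), with the highest library an obese one at 0.0922 TPM.

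**Figure D3:**
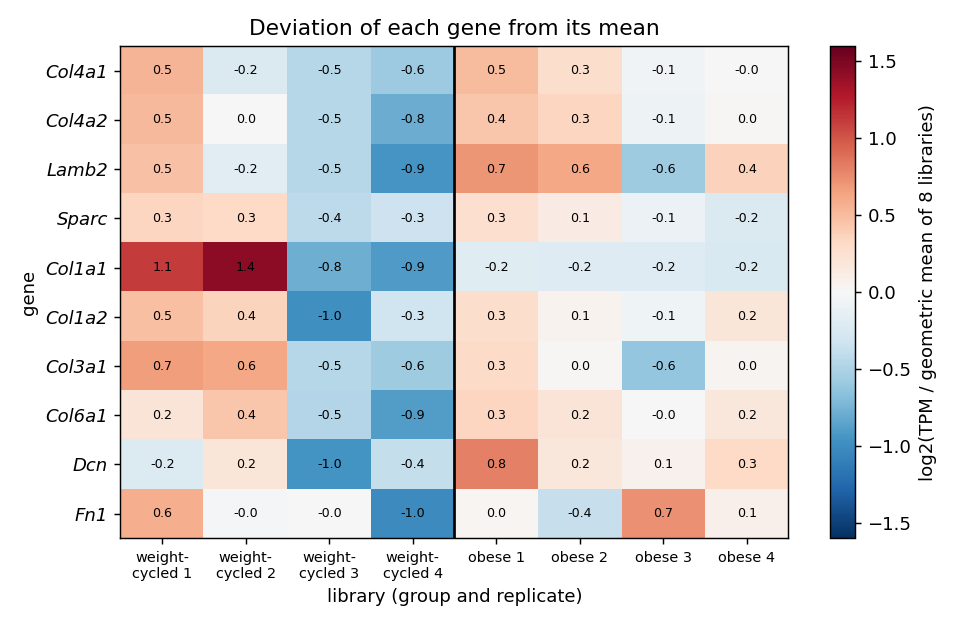
Log2 of TPM over the geometric mean of the 8 libraries for each of the 10 genes (rows), with weight-cycled libraries in the left columns and obese libraries in the right. Weight-cycled replicates 3 and 4 are below 0 for each gene except Fn1, which is at 0 in replicate 3, and Col1a1 reaches its highest values in weight-cycled replicates 1 and 2 (0.278 and 0.348 TPM).

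The matrix genes varied widely among the weight-cycled libraries. The coefficient of variation was larger in weight-cycled than in obese islets for 10 of 10 genes, as it was for 79.3% of the 8127 tested genes, and no test of the spread was run. It was 74.0% in weight-cycled and 1.13% in obese islets for Col1a1, and 27.8% in weight-cycled and 15.8% in obese islets for Sparc. The near-equal obese values of Col1a1 hold for TPM as deposited only. After median-of-ratios scaling they ran from 0.0922 to 0.107, against 0.0810 to 0.443 in weight-cycled islets. Weight-cycled replicates 1 and 2 both exceeded replicates 3 and 4 for 9 of the 10 genes, the exception being Fn1, where 15.4% of all genes above 0 and 10.7% of tested genes had that order. The 10 genes share these 4 libraries, so this count is a description of them and not of the diet.

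Median-of-ratios scaling moves every gene of a library alike, so small differences can change sign with it and such a change says nothing particular of the 10 genes. Scaled levels of Col1a2 were 0.642 ± 0.268 in weight-cycled and 0.557 ± 0.0674 in obese islets, and those of Sparc were 10.5 ± 3.12 in weight-cycled and 8.32 ± 0.644 in obese islets (SD, n = 4 each). The scaled level of Dcn was 0.419 ± 0.167 in weight-cycled and 0.514 ± 0.103 in obese islets. With insulin transcripts left out and TPM recomputed over the remaining genes, the 10 genes summed to 106, 92.5, 60.2 and 51.4 TPM in weight-cycled replicates 1 to 4, against 101, 87.5, 71.2 and 76.6 TPM in obese replicates 1 to 4. The weight-cycled libraries held both the highest and the lowest of these sums.

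The chains of a collagen trimer were compared as ratios, which do not depend on a library's scaling. The ratios were not corrected for the trend of libraries with transcript length. Median annotated lengths differ between the chains, at 1170 bases for Col4a1 and 6450 for Col4a2, and 5930 for Col1a1 and 3099 for Col1a2. The ratio of Col4a2 to Col4a1 was 0.735, 0.885, 0.757 and 0.643 in weight-cycled replicates 1 to 4, against 0.724, 0.785, 0.740 and 0.771 in obese replicates 1 to 4. Its log2 mean was -0.42 ± 0.189 in weight-cycled and -0.41 ± 0.0532 in obese islets (SD, n = 4 each), a difference of -0.01 (exact permutation test, two-sided, p = 0.886, 0.886 adjusted over 3 ratios). The ratio of Col1a2 to Col1a1 was 2.90, 2.12, 3.91 and 6.72 in weight-cycled replicates 1 to 4, against 6.22, 5.38, 4.95 and 6.01 in obese replicates 1 to 4. It was lower than in any obese library in 3 of 4 weight-cycled libraries and highest of all in replicate 4. The log2 difference was -0.66 (exact permutation test, two-sided, p = 0.143, adjusted p = 0.256). It ranged from -0.96 to -0.41 with single libraries left out (exact permutation p from 0.0286 to 0.286, unadjusted). The lowest of these leaves out weight-cycled replicate 4, the one weight-cycled library above the others, so that p follows from which library was dropped. The ratio of type I and III (Col1a1, Col1a2 and Col3a1) to type IV (Col4a1 and Col4a2) was 0.211, 0.329, 0.161 and 0.223 in weight-cycled replicates 1 to 4, against 0.166, 0.159, 0.169 and 0.207 in obese replicates 1 to 4. Only weight-cycled replicate 3 lay within the obese range, and the log2 difference of 0.36 did not pass (exact permutation test, two-sided, p = 0.171, adjusted p = 0.256, where the smallest p that 8 libraries allow is 0.0286).

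**Figure D4:**
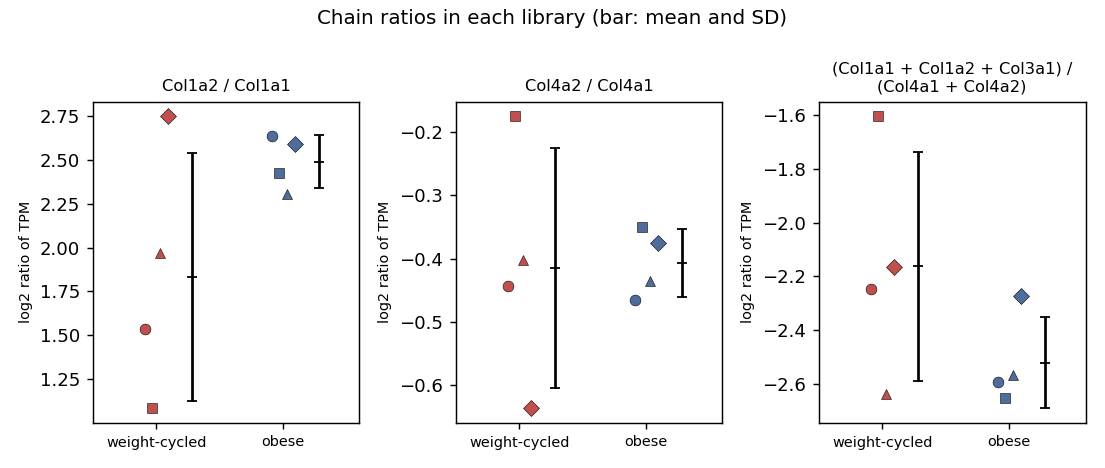
Log2 ratio of TPM in each library for Col1a2 over Col1a1, Col4a2 over Col4a1, and type I and III over type IV, with weight-cycled libraries left of obese libraries and the mean and SD of 4 libraries beside each group. The Col4a2 to Col4a1 means lie at -0.42 in weight-cycled and -0.41 in obese islets, while the Col1a2 to Col1a1 ratio spreads from 1.08 to 2.75 in weight-cycled and from 2.31 to 2.64 in obese islets.

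Genes with the profile most like that of Col4a1 were sought by the root mean square difference of centred log2(TPM + 1) over the 8 libraries, among tested genes with an SD of at least 0.3. The 5 nearest of 2024 were Abcg1, a cholesterol transporter gene (0.0608), Cavin1, a caveolar coat gene (0.0699), Col4a2 (0.0812), Ace, the angiotensin-converting enzyme gene (0.0827), and Epas1, a hypoxia-inducible factor gene (0.0836). Each of these was at its highest weight-cycled level in replicate 1, as was Col4a1, which follows from the choice by profile. That order held for 63.7% of the 8127 tested genes. For Col3a1 the 5 nearest were Cd52, Lgals1, Otoa, Klf10 and Fabp4, at 0.180 to 0.198. Col3a1 itself had an SD of 0.164 on that scale, below the 0.3 asked of the candidates, so these distances were bound to be large and do not show how closely the 5 follow it.

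The wider matrix pathway held 158 other genes in 7 lists, of which 48 reached 1 TPM. Of these, 5 fell, 0 rose and 43 did not pass, so 10.4% were called lower where 23.9% of all tested genes were. After median-of-ratios scaling 0 were lower and 2 were higher, and after length correction 0 were called. Without weight-cycled replicate 1 limma called 34 of them, in a fit that called 58.0% of all tested genes. Without obese replicate 4 it called 6 of them and 1736 of all 8127 genes, and without any other single library it called 0 of them. Among matrix receptors, 3 of 12 tested genes fell and 9 did not pass, with a median log2 fold change of -0.37 (-0.12 after scaling). Ddr1, a receptor tyrosine kinase gene activated by collagen, had 16, 11, 12.9 and 9.49 TPM in weight-cycled replicates 1 to 4, against 22.6, 22.2, 16.9 and 16.1 TPM in obese replicates 1 to 4. The groups did not overlap, with every weight-cycled library below the obese ones, and the log2 fold change was -0.63 (SE 0.158, limma adjusted p = 0.0337, but 0.102 after scaling). Itgb1, the beta 1 integrin subunit gene shared by most collagen and laminin receptors, was at -0.51 (SE 0.156, limma adjusted p = 0.0414, 0.180 after scaling), and Dag1, the dystroglycan gene, at -0.54 (SE 0.155, limma adjusted p = 0.0367, 0.115 after scaling). Sdc2, a syndecan gene, was at -0.29 (limma adjusted p = 0.0533).

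Of 12 other collagen genes (fibrillar, fibril-associated, type VI and type VIII), Col6a6 alone was tested, and it fell. It is a type VI collagen gene, and no fibrillar collagen gene of that list reached the level for testing. Col6a6 is thus no measure of fibrillar collagen. Levels of Col6a6 were 1.43, 0.429, 0.891 and 0.476 TPM in weight-cycled replicates 1 to 4, against 1.71, 2.32, 1.44 and 1.55 TPM in obese replicates 1 to 4, with a fold change of -0.63 on the log2 scale (SE 0.172, limma adjusted p = 0.0354, but 0.0843 after scaling). Col6a2 and Col6a3, the partners of Col6a1 in the common type VI trimer, were below the level for testing and are named after their values were seen. Col6a2 was at 0.279 ± 0.104 TPM in weight-cycled and 0.325 ± 0.0648 TPM in obese islets, and Col6a3 at 0.627 ± 0.281 TPM in weight-cycled and 1.04 ± 0.189 TPM in obese islets (SD, n = 4 each). Of 20 other basement membrane genes only Lamc1, the laminin gamma 1 gene, was tested, at -0.21 (limma adjusted p = 0.249). Of 30 other proteoglycan and glycoprotein genes, 8 were tested and 0 passed. Igfbp7, a vascular matrix glycoprotein gene, was at -0.37 (limma adjusted p = 0.0527), Spock2, a testican gene, at -0.55 (limma adjusted p = 0.0696), Sparcl1, a relative of Sparc, at -0.42 (limma adjusted p = 0.0829) and Vtn, the vitronectin gene, at -0.26 (limma adjusted p = 0.106).

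Enzymes that modify, fold and export collagen did not pass the test either way. Of 26 genes in that list, 16 were tested and 0 passed, with a median of -0.06 (0.14 after scaling). Ppib, a prolyl isomerase gene, was at 0.29 (limma adjusted p = 0.0782), P4hb, the protein disulfide isomerase that is also the beta subunit of prolyl 4-hydroxylase, at 0.23 (limma adjusted p = 0.104), Mia3, a procollagen export gene, at -0.68 (limma adjusted p = 0.0743) and Colgalt1, a collagen galactosyltransferase gene, at -0.23 (limma adjusted p = 0.119). After scaling, P4ha2, a prolyl 4-hydroxylase gene, and P3h4, both named for that call, were higher at 0.43 and 0.42 (limma adjusted p = 0.0436 and 0.0410). Of 25 protease and inhibitor genes, 3 were tested and 0 passed, and Mmp7 was listed at 0 in every library, with Timp3 at -0.51 (limma adjusted p = 0.0719), Ctsb at -0.17 and Timp2 at -0.11. Of 21 TGF-beta signalling genes, 7 were tested and 1 fell, Smad2, which carries the receptor's signal, at -0.43 (SE 0.123, limma adjusted p = 0.0379, 0.150 after scaling). Tgfbr1, a receptor subunit gene, was at -0.32 (limma adjusted p = 0.0553), Ski at -0.35 (limma adjusted p = 0.0611) and Smad4 at -0.39 (limma adjusted p = 0.0629).

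**Figure D5:**
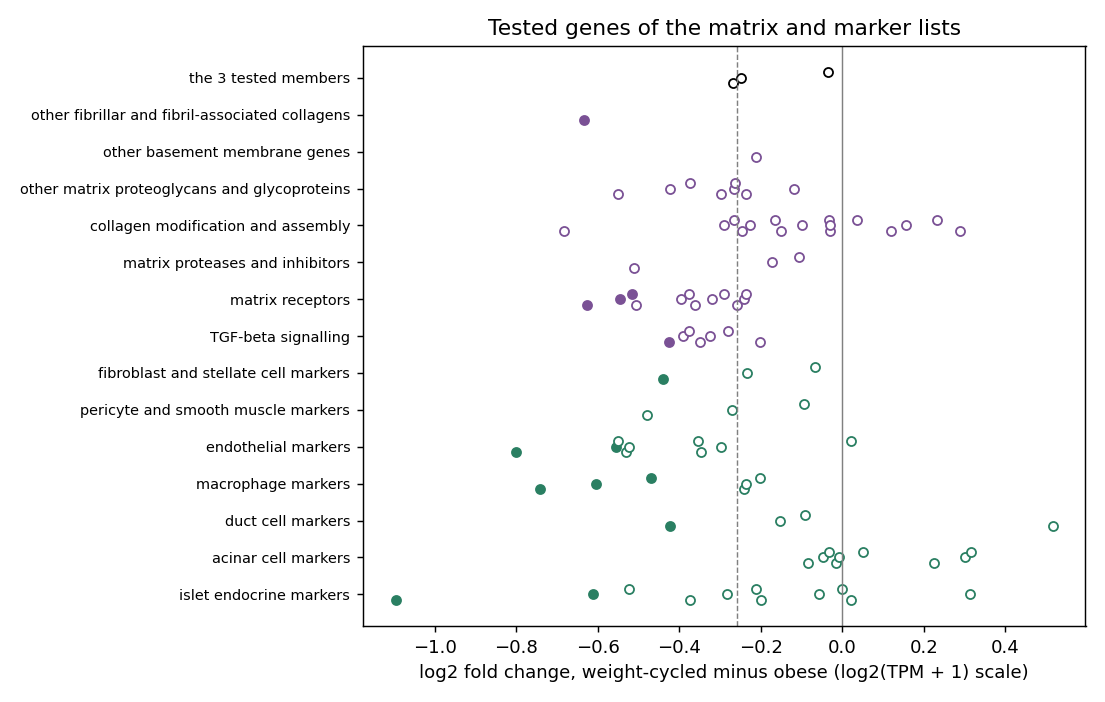
Log2 fold change, weight-cycled minus obese, of each tested gene of the matrix lists (purple) and 7 of the cell-type marker lists (green), filled where the limma adjusted p is under 0.05, with the 3 tested members of the 10 in the top row. The dashed line is the median of all tested genes, -0.26, and each filled point lies below it, such as Ddr1 at -0.63.

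Markers of the cells that make matrix were measured beside these genes. Of 10 fibroblast and stellate cell markers, 3 were tested and Gsn fell (-0.44, SE 0.138, limma adjusted p = 0.0437, but 0.344 after scaling), while Ly6a and Cd34, which endothelial cells also express, did not pass. Pdgfra, the defining receptor gene of fibroblasts, was at most 0.0443 TPM in any library, and Scara5 was at 0 in some. The summed level of the 10 was 17.2 to 24.5 TPM in weight-cycled and 22.3 to 34.2 TPM in obese islets. Most of that sum came from Gsn, Ly6a and Cd34, and no other of the 10 exceeded 0.96 TPM in any library. Of 10 pericyte and smooth muscle markers, 3 were tested and 0 passed, with sums of 9.21 to 18.7 TPM in weight-cycled and 13.8 to 19.4 TPM in obese islets, and Cnn1 was at 0 in most libraries. Rgs5, a pericyte gene, was at -0.48 (limma adjusted p = 0.0973), Acta2 at -0.27 and Tagln at -0.09.

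Endothelial markers are set here beside the type IV genes. Their sum over 12 genes was 66.8, 46.6, 43.2 and 34.8 TPM in weight-cycled replicates 1 to 4, against 94.6, 75.3, 59.7 and 58.0 TPM in obese replicates 1 to 4, with replicate 1 the highest weight-cycled library. Replicate 1 was the highest weight-cycled library for 63.7% of the 8127 tested genes too, so this order is not particular to these markers. Of 9 tested, 2 fell and 7 did not pass, with a median log2 fold change of -0.52 (-0.21 after scaling). Esm1, an endothelial proteoglycan gene, fell (-0.80, SE 0.155, limma adjusted p = 0.0277, 0.0495 after scaling), as did Kdr, a VEGF receptor gene (-0.56, SE 0.184, limma adjusted p = 0.0470, 0.144 after scaling). Emcn was at -0.52 (limma adjusted p = 0.0540) and Flt1 at -0.55 (limma adjusted p = 0.0561). Egfl7, named after its value was seen, went the other way at 0.02 (limma adjusted p = 0.894). The part of these cells in the type IV values was not tested. Of 6 tested macrophage markers 3 fell, Lyz2 (-0.74), Ctss (-0.60) and Tyrobp (-0.47), and C1qa was at -0.20, with sums over 10 genes of 43.0 to 54.0 TPM in weight-cycled and 56.4 to 71.3 TPM in obese islets. None of these 3 passed after scaling. Of 4 tested duct markers Krt7 fell (-0.42, limma adjusted p = 0.478 after scaling), and Spp1, Krt8 and Krt18 were at 0.52, -0.15 and -0.09. None of 9 tested acinar markers passed (limma adjusted p from 0.255), with a median log2 fold change of -0.01 (0.32 after scaling). The 4 with the smallest p were Cela2a at 0.30, Cela1 at 0.32, Prss2 at 0.22 and Bhlha15 at -0.08. Acinar sums were 6890, 3280, 2990 and 3240 TPM in weight-cycled replicates 1 to 4, against 2350 to 4420 TPM in obese islets. Of 11 islet endocrine genes Mafa (-1.10) and Pdx1 (-0.61) fell (limma adjusted p = 0.0611 and 0.129 after scaling), and Iapp was at 0.31. Over all marker lists limma called 9 of 46 tested genes lower (19.6%), against 23.9% of all tested genes. Without obese replicate 1 limma called 0 of all 8127 genes, so the loss of these 9 calls there is not particular to them.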

How the data were processed

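Polyadenylated RNA of hand-picked islets was sequenced in 4 weight-cycled and 4 obese libraries. The authors deposited gene-level TPM. Salmon 1.5.2 and mm10 are named in the submitters' processing notes, and the step from transcripts to genes is not given in the sources used here. TPM keeps no depth, so count tests were not run. Symbols were found for 99.8% of gene IDs, and GENCODE M21 (GRCm38, equal to mm10) gave coordinates and transcript lengths. The members and lists were chosen with earlier results of these data known. Genes with a mean of at least 1 TPM went into limma 3.58.1 under R 4.3.3 (mean-variance trend, two-sided, no covariate) on log2(TPM + 1), with Benjamini-Hochberg adjustment over all 8127 genes at 0.05. Fold changes are weight-cycled minus obese on that scale and understate changes of low genes. Ratios were compared with an exact permutation test (70 assignments). Length correction removed a loess trend (span 0.5) of each library's deviations on log transcript length, taken as the median annotated transcript of a gene, not weighted by expression. Named were all members, up to 4 genes with the smallest p in each list, and the 5 nearest profiles to Col3a1 and Col4a1, with exceptions stated, and some genes this takes are not reported here. Alternatives were pseudocounts of 0.1 and 5, other filters, scalings, a replicate block, a 0.1 threshold and the omission of single libraries.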

Additional observations from a re-analysis of the deposited data

Results flagged for a closer look

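Dixon's ratio was applied to 170 sets of 4 values of named genes and sums, and 1 library stood apart in 11 of them, where about 8.5 would by chance. Weight-cycled replicate 1 was far above the others of its group for Lamc1 (1.43 TPM against 0.634 to 0.747), Rgs5 (12.6 TPM against 5.42 to 6.42), Kdr (3.47 TPM against 1.76 to 2) and Flt1 (2.77 TPM against 1.07 to 1.31). It was also above them for 3 genes with profiles like that of Col4a1, namely Abcg1 (4.15 TPM against 1.92 to 2.27), Ace (1.97 TPM against 0.709 to 0.869) and Epas1 (2.84 TPM against 0.925 to 1.23). These 3 entered through their likeness to Col4a1, itself highest in that library, so their flags partly follow from that choice. The same library was high for Krt8 (20.2 TPM against 16.7 to 17.1), Cela2a (1360 TPM against 728 to 808) and the summed acinar markers (6890 TPM against 2990 to 3280). Obese replicate 3 was low for Cela2a (498 TPM against 795 to 843). No library stood apart for any of the 10 matrix genes.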

How the results depend on the processing

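The number of matrix genes called by limma was 0 under each of 20 alternatives but 1, and ranged from 0 to 2 when single libraries were left out, with Col4a1 and Col4a2 called without weight-cycled replicate 1. Over all genes, the total of 2044 (98 higher, 1946 lower) became 0 without the filter on low values or with that and a pseudocount of 0.1 together, 1080 with a filter at 5 TPM, 147 after median-of-ratios scaling (101 higher, 46 lower), 287 after quantile scaling (165 higher, 122 lower), 265 after length correction (142 higher, 123 lower) and 3963 at a threshold of 0.1. It ranged from 0 to 4711 when single libraries were left out, with 0 left on omitting obese replicate 1, 41 on omitting obese replicate 2 and 35 on omitting obese replicate 3. Omitting weight-cycled replicate 1 gave 4711, replicate 2 gave 40, replicate 3 gave 71 and replicate 4 gave 10. Scaled and without weight-cycled replicate 1 it was 3074. The 5 pathway genes called became 0 without the filter (with either pseudocount) and after length correction, 2 with a filter at 5 TPM, 2 after median-of-ratios and 2 after quantile scaling, 18 with the replicate block and 20 at a threshold of 0.1. They ranged from 0 to 34 when single libraries were left out (34 without weight-cycled replicate 1, 6 without obese replicate 4 and 0 for every other library), and were 13 without weight-cycled replicate 1 after scaling. The log2 difference in the ratio of Col4a2 to Col4a1 was 0.019 with 1 TPM added and -0.088 to 0.066 without single libraries, that of Col1a2 to Col1a1 -0.96 to -0.41, and that of type I and III to type IV 0.17 to 0.52. Krt18 turned from -0.09 to 0.27 (limma adjusted p = 0.0401) after scaling without weight-cycled replicate 1. The cause of these moves was not tested. A looser filter tests more genes and also changes the fit, as the unadjusted limma p of Esm1 went from 0.000255 to 0.00145 without the filter.

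Length correction separated the type IV pair, to -0.12 for Col4a1 and 0.16 for Col4a2. The lengths it used were those of the median annotated coding transcript, 1170 bases for Col4a1 and 6450 for Col4a2. These medians are not weighted by expression, so the separation follows from the lengths assigned. The lengths of the transcripts present in the islets were not tested. Replicate numbers are shared between the groups, but nothing in the labels pairs them. Deviations of same-numbered libraries correlated across genes at 0.210, -0.276, -0.0522 and 0.231. With the replicate block limma called 2903 genes and 0 of the 10 matrix genes (adjusted p = 0.0904 for Col4a1), and the 3 ratio differences kept their values with no call. Depth is unknown, and the 7 genes below 1 TPM are those where counting error would weigh most.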

Other observations

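Of the 158 pathway genes, 8 (5.06%) had groups that did not overlap on TPM as deposited, all lower in weight-cycled islets. That share was below the 12.2% of all genes above 0, so it is no result about matrix genes. Of these 8, 3 were below the level for testing and were picked after their values were seen. Fbln5, an elastic fibre gene, had 0.291, 0.293, 0.281 and 0.261 TPM in weight-cycled replicates 1 to 4, against 0.454, 0.447, 0.424 and 0.454 TPM in obese replicates 1 to 4. After median-of-ratios scaling its groups met, with up to 0.373 in weight-cycled and from 0.373 in obese islets. Ltbp2, a latent TGF-beta binding protein family gene, had 0.0388, 0.0239, 0.0434 and 0.0254 TPM in weight-cycled replicates 1 to 4, against 0.151, 0.106, 0.156 and 0.136 TPM in obese replicates 1 to 4. Reck, a membrane-bound inhibitor of matrix proteases, averaged 0.232 ± 0.0697 TPM in weight-cycled and 0.447 ± 0.102 TPM in obese islets (SD, n = 4 each). After scaling, Ltbp2 was at 0.0300 to 0.0477 in weight-cycled and 0.0892 to 0.145 in obese islets, and Reck at 0.218 to 0.316 in weight-cycled and 0.338 to 0.464 in obese islets. In the fit of all genes above 0, none of them passed (limma adjusted p = 0.0912 for Fbln5, 0.0912 for Ltbp2 and 0.0975 for Reck), as no gene did.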
